A study of Mus musculus with 17 samples.

Results

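Meningeal fibroblast spots were the spots of 3 Visium brain sections in which genes of meningeal fibroblasts were highest. A Visium spot is a small patch of tissue that can hold several cells of different types. Among spots with at least 1000 counts, the 50 with the highest mean of log-transformed counts per 10000 of Dcn, Igf2, Slc6a13, Aebp1 and Ptgds were taken in each section. This gave 150 of 7827 spots, of which 7807 had at least 1000 counts. The study counted RNA in single cells dissected from the anterior thalamic nuclei and in sections of flash-frozen brain through those nuclei. Posterior sections 2 and 6 and anterior section 5 came from WT mice. The labels give no treatment, age or sex. The files held no position for a spot, so that no spot could be placed on the brain surface, in a ventricle or along a vessel.

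The meninges are the connective tissue layers around the brain. Pial fibroblasts lie on the brain surface and follow vessels inwards, arachnoid cells form a barrier to the dura, and dural fibroblasts lie outermost. These cells lay down collagens and basement membrane, carry solutes out of the cerebrospinal fluid and make retinoic acid and growth factors. Decorin (Dcn) is a proteoglycan that binds collagen fibrils, and Igf2 is a growth factor made in the meninges and the choroid plexus. Slc6a13 takes up GABA and taurine, Aebp1 is a collagen-binding matrix protein, and Ptgds makes prostaglandin D2 and carries lipids. Oligodendrocytes also make Ptgds.

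The promoters of 4 genes are shown because they stand for roles that rose together in these spots: a fibrillar collagen, a small leucine-rich proteoglycan, an organic anion transporter and the enzyme that makes retinoic acid. Each window runs from 250 bases before to 50 bases after a RefSeq gene start (GRCm38.p6), 5′ to 3′ on the gene's strand, and capitals mark the CCAAT box (CCAAT, either strand).
Col1a2, chr6:4505368-4505667, plus strand: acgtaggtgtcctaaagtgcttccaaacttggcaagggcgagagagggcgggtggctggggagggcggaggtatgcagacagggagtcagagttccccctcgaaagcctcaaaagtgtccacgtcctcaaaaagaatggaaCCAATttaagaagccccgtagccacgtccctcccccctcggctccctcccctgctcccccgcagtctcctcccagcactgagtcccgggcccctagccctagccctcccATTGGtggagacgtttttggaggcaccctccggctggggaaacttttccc
Fmod, chr1:134037004-134037303, plus strand: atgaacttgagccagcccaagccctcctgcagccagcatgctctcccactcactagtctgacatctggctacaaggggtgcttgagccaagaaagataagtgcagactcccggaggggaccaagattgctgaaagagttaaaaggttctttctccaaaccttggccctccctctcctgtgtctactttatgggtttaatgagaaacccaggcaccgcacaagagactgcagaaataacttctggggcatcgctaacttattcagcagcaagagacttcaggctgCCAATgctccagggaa
Slc22a6, chr19:8617746-8618045, plus strand: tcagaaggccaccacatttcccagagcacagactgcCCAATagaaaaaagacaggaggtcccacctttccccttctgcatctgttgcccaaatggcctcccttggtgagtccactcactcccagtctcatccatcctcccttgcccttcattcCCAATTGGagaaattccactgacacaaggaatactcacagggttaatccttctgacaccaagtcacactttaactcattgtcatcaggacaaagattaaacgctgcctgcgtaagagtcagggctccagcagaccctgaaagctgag
Aldh1a2, chr9:71215539-71215838, plus strand: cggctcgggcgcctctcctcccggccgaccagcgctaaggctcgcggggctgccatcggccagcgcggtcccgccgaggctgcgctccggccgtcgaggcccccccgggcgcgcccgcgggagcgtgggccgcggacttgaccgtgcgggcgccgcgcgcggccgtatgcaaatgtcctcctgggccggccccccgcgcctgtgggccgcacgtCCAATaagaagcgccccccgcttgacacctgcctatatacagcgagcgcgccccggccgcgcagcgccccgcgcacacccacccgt
These 4 were picked with the matches in view. Counted from 1 at the 5′ end, the matches began at positions 142 and 251 in Col1a2, 285 in Fmod, 37, 154 and 157 in Slc22a6 and 215 in Aldh1a2. The last 2 matches in Slc22a6 overlap on opposite strands. RefSeq entries were found for 14 of the 17 genes of the score and the further fibroblast list, with 19 start sites. The entries missing were Col1a1, Dcn and Lum. CCAAT stood in 42.1% of these 19 windows and in 37.4% of all 32851 windows. A TATA motif (TATAAA) stood in 15.8% against 13.6%, and a GC box (GGGCGG) in 42.1% against 35.7%. A forkhead motif (GTAAACA) stood in 0 of the 19 and in 3.65% of all. Motifs were read on both strands, and a match is a description of letters, not of a binding site.

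The chosen spots held 404765, 309522 and 432634 counts in sections 2, 5 and 6, from a median of 7155, 5574 and 8059 counts per spot. Other spots had medians of 9038, 5311 and 7201. The section is the replicate here (n = 3), and the labels do not say whether the sections came from separate animals, so the p-values measure only the spread between sections. Levels are given per 1000000 counts (CPM): the counts of a set of spots were added up, divided by that set's total and scaled. In such mixed spots, fewer cells of a type and less RNA per cell cannot be told apart. Anterior section 5 stood apart: it had the highest CPM of 4 of the 5 score genes and of the other fibroblast markers. Pairs of sections shared 1500 to 1774 spot barcodes, and at most 2 among the chosen spots.

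The 5 genes of the score chose the spots, so their values are described without a test. Dcn stood at 309, 594 and 610 CPM in the chosen spots of sections 2, 5 and 6, against 12.6, 11.4 and 8.49 CPM in the other spots. Igf2 reached 699, 1725 and 1144 CPM against 73.5, 70.0 and 46.0. Slc6a13 was at 183, 320 and 99.4 CPM against 4.57, 4.01 and 3.14, and Aebp1 at 220, 449 and 252 CPM against 9.87, 8.39 and 10.3. Ptgds was by far the most abundant of the 5, at 19698, 33158 and 16071 CPM against 726, 780 and 638. The chosen spots thus held 49.4% of all Ptgds counts and 64.7% of all Slc6a13 counts of section 5, but only 13.1% of the Igf2 counts of section 2. Few spots carried all 5 genes: 22, 20 and 17 of the 50 chosen, and 7, 0 and 0 of the other spots. The score fell without a break at the limit of 50. It was 1.589 at rank 50 and 1.582 at rank 51 in section 2, 1.671 and 1.670 in section 5, and 1.323 and 1.318 in section 6, against a median of 0.366, 0.365 and 0.379 in the other spots. In a repeat in which spots were chosen on a random 50% of the counts and levels read from the rest, 39, 43 and 40 of the 50 spots were chosen again. Dcn was then at 217, 499 and 587 CPM in the chosen spots.

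Fibroblast genes that the score did not use were set beside the label as a description. Of 12 further fibroblast markers, 12 rose against the other spots of the same section, with a median log2 fold change of 4.85. The median over all 13832 genes tested was -0.03. Of those genes, 1979 rose, which is 14.3%, and 1655 fell, which is 12%. With section 5 left out, 1131 rose and 979 fell. Genes that were rare elsewhere could enter the test only through the chosen spots, so the counts for the lists describe them and are not support for them. The main fibrillar collagen Col1a1 was at 121, 246 and 164 CPM in the chosen spots of sections 2, 5 and 6 and at 4.84, 6.16 and 3.69 CPM elsewhere. Its log2 fold change was 5.17 ± 0.22 (SE; edgeR quasi-likelihood test with Benjamini-Hochberg adjustment, adjusted p = 5.81e-12). Fibromodulin (Fmod), a proteoglycan that controls fibril assembly, was at 215, 517 and 116 CPM against 4.53, 5.12 and 2.98, a log2 fold change of 5.90 ± 0.23 (edgeR adjusted p = 2.15e-12). Osteoglycin (Ogn), of the same family, was at 185, 391 and 155 CPM against 6.32, 4.38 and 3.75 (5.57 ± 0.25, edgeR adjusted p = 7.17e-12). Pdgfra, which oligodendrocyte precursors also express, showed the smallest difference of the 12, at 39.5, 84.0 and 71.7 CPM against 25.1, 27.3 and 25.02 (1.33 ± 0.25, edgeR adjusted p = 0.000531). All 12 passed in the same direction with each section left out, with 25 spots per section and with spots chosen on 50% of the counts. Twist1, counted in 3, 5 and 3 chosen spots, entered the test through them, so its calls are not support.

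**Figure D1:**
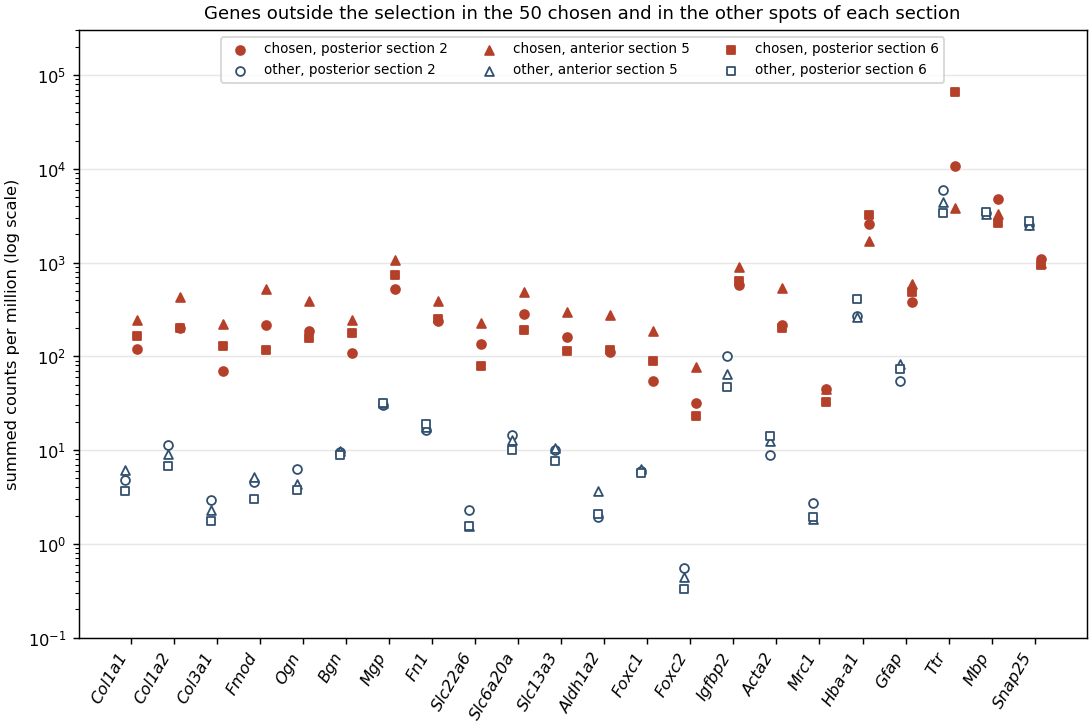
Summed CPM (log axis) of 22 genes that were not in the score, in the 50 chosen spots (filled) and the other spots (open) of sections 2 (circles), 5 (triangles) and 6 (squares). Matrix, transport and mesenchymal genes such as Col1a1 lie above the other spots in all 3 sections, Ttr lies below them in section 5 only, and Snap25 lies below them in all 3.

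The 50 spots of a section were not equally rich in fibroblast RNA. At least 1 of the 12 markers was counted in 48, 46 and 49 of the 50 spots, and at least 5 of them in 24, 25 and 25 spots. Among the other spots, 39, 6 and 9 held at least 5. Col1a2 was counted in 68%, 64% and 62% of the chosen spots and in 7.89%, 4.07% and 4.43% of the others. With every spot thinned to 1000 counts, these shares were 14%, 26% and 14% against 1.06%, 0.766% and 0.656%. The 5 richest spots held 34.2%, 41.6% and 37.5% of the counts of the 12 markers.

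Matrix genes rose as a broad group. Of 10 fibrillar collagen genes tested, 6 rose (median log2 fold change 2.12) and 4 did not pass: Col11a1, Col11a2, Col24a1 and Col27a1. Col3a1 was at 69.2, 220 and 129 CPM against 2.93, 2.30 and 1.76 (log2 fold change 5.80 ± 0.35, edgeR adjusted p = 3.83e-10), and at 6.40 with section 2 left out. Col1a2 was at 203, 433 and 199 CPM against 11.4, 8.98 and 6.78 (4.89 ± 0.22). Among other collagens, 9 of 12 rose and 1 fell. The one that fell was Col25a1, a neuronal membrane collagen, at 22.2, 12.9 and 16.2 CPM against 39.1, 37.0 and 31.5 (edgeR adjusted p = 0.02). That call was lost with section 5 left out (edgeR adjusted p = 0.113), with DESeq2 and with 25 spots per section, among others.

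Small leucine-rich proteoglycans, the family of Dcn, gave 7 of 7 tested genes higher, with a median log2 fold change of 4.82. Kera, Epyc and Optc were too rare to test. Biglycan (Bgn) was at 109, 246 and 176 CPM against 9.52, 9.72 and 8.82, and osteomodulin (Omd) at 42.0, 77.5 and 18.5 CPM against 0.937, 1.19 and 0.331. Of 19 basement membrane genes tested, 18 rose (median 2.96) and agrin (Agrn) did not pass, at 88.9, 84.0 and 67.0 CPM against 72.2, 73.0 and 78.7. Laminin alpha 2 (Lama2) was at 34.6, 77.5 and 71.7 CPM against 7.57, 7.94 and 8.82, and nidogen 1 (Nid1), which links laminin to collagen IV, at 44.5, 74.3 and 32.4 CPM against 4.37, 4.45 and 4.52. Col4a1, also a gene of brain capillaries, differed less, at 51.9, 116 and 64.7 CPM against 19.8, 22.4 and 21.0.

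Elastic fibre and matrix glycoprotein genes rose in 22 of 24 cases tested (median 2.87). Fibronectin (Fn1) was at 240, 391 and 247 CPM against 16.3, 17.7 and 19.1 (log2 fold change 4.03 ± 0.17, edgeR adjusted p = 5.49e-12). Elastin (Eln), the core of elastic fibres, was at 46.9, 155 and 62.4 CPM against 3.24, 4.38 and 3.75. Collagen processing genes rose in 12 of 19 cases, and matrix proteases and inhibitors in 16 of 22. Without section 5 these were 8 of 19 and 12 of 22. Serpinh1, the chaperone of procollagen, was at 106, 178 and 139 CPM against 21.2, 18.9 and 15.0. Pcolce, which speeds the trimming of procollagen, was at 104, 191 and 183 CPM against 14.01, 8.46 and 7.93. The prolyl hydroxylases P4ha1, P4ha2 and P4ha3, which modify nascent collagen, did not pass the test.

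**Figure D2:**
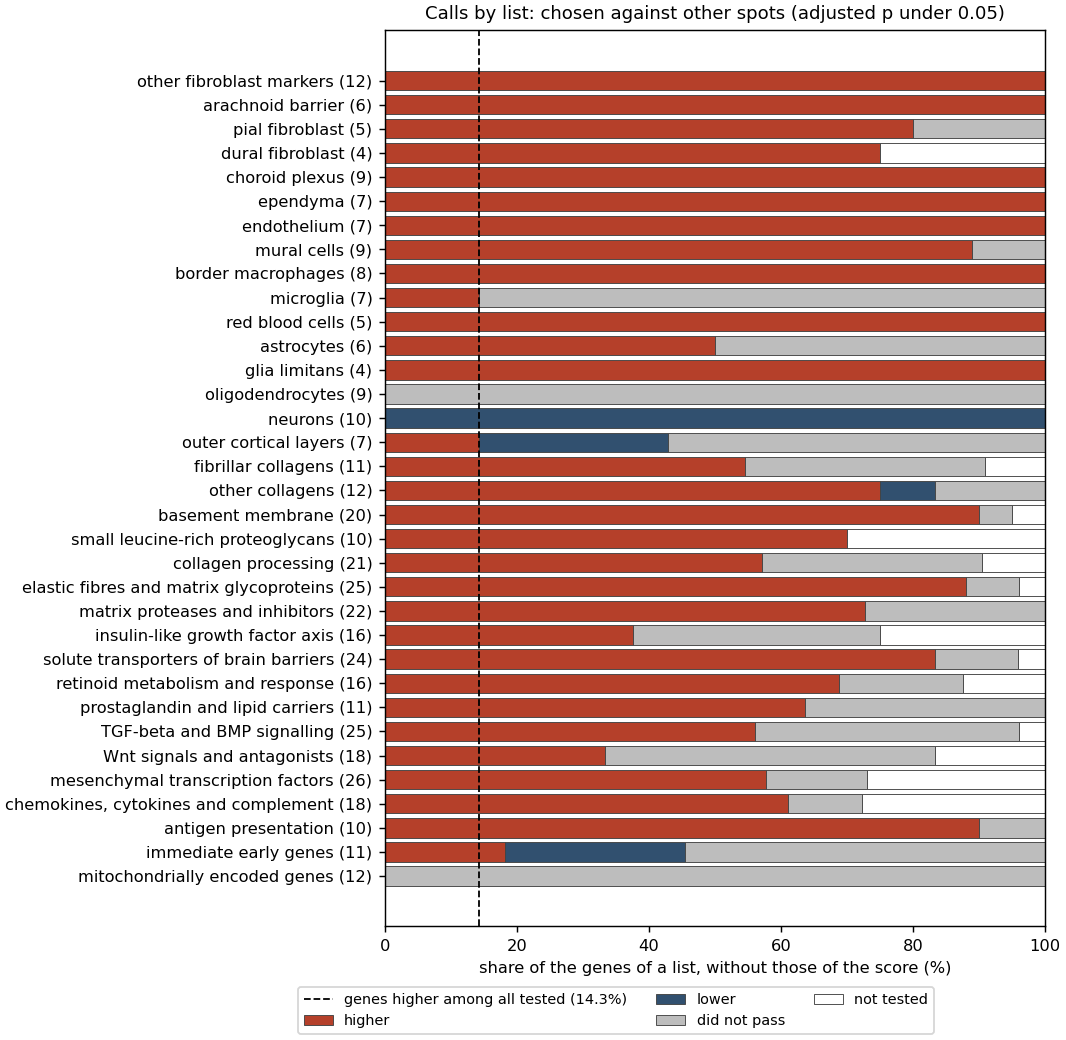
Share of the genes of each list (number of genes in brackets, without the 5 of the score) that were higher, lower, did not pass or were not tested in chosen against other spots. The dashed line is the 14.3% of all tested genes that were higher; most matrix, transport and vessel lists lie far past it, while oligodendrocyte and mitochondrially encoded genes hold no call.

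Markers listed for each of the 3 meningeal layers were counted in the chosen spots. Arachnoid barrier markers rose in 6 of 6 cases, pial markers in 4 of 5 (Ngfr did not pass) and dural markers in 3 of 3 tested (Dkk2 was not tested). Dkk2 was counted in 0, 1 and 0 of the chosen spots of sections 2, 5 and 6, and the dural marker Smoc2 in 7, 3 and 5. Dural calls fell to 2 of 3 without section 2, without section 5, and with spots chosen on part of the counts. Whether the chosen spots held dura was not tested. E-cadherin (Cdh1), the adhesion protein of the arachnoid barrier, was at 19.8, 67.8 and 6.93 CPM against 0.390, 0.0742 and 0.386. Those levels rest on 8, 21 and 3 counts. Crabp2, which carries retinoic acid in the cell, was at 19.8, 139 and 34.7 CPM against 1.48, 0.742 and 1.16. Cdh1 and Crabp2 entered the test through the chosen spots, so their levels are given without a fold. Matrix Gla protein (Mgp), used here as a dural marker and also made by vessel walls, was the most abundant of these at 526, 1066 and 733 CPM against 30.3, 31.5 and 31.5 (log2 fold change 4.61 ± 0.17, edgeR adjusted p = 1e-12). The calls of the arachnoid markers Krt18 and Dpp4 were lost with a section left out. Krt18 was at 12.4, 0 and 69.3 CPM against 4.41, 4.45 and 3.80, with a log2 fold change of 2.501, and 0.59 without section 6 (edgeR adjusted p = 0.717). It was 1.21 with choroid plexus spots left out (edgeR adjusted p = 0.477). In choroid plexus spots Krt18 stood at 89.3, 138 and 129 CPM, and the 9 choroid plexus markers were also highest in the chosen spots of section 6, at 75207 CPM in sum. Their part in its result was not tested. Dpp4 had 2.05, and 0.51 without section 2 (edgeR adjusted p = 0.832), and its call was also lost without section 5 (2.46, edgeR adjusted p = 0.0637). It was counted in only 5, 1 and 1 of the chosen spots, so these values lie near the floor.

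Solute transporters of brain barriers rose in 20 of 23 cases tested, with a median log2 fold change of 2.65. Slc22a6, which moves organic anions, was at 136, 226 and 78.6 CPM against 2.30, 1.56 and 1.54 (log2 fold change 6.24 ± 0.31, edgeR adjusted p = 2.52e-11). Slc6a20a, a proline transporter, was at 282, 485 and 192 CPM against 14.6, 12.7 and 9.97 (4.62 ± 0.19, edgeR adjusted p = 5.04e-12). Slc13a3, which takes up dicarboxylates, was at 161, 297 and 113 CPM against 9.95, 10.5 and 7.66, and the sulfate transporter Slc13a4 at 178, 339 and 185 CPM against 13.7, 6.83 and 5.95. The betaine and GABA transporter Slc6a12 had 8, 21 and 8 counts in the chosen spots and 8, 2 and 0 in the others. The organic cation exporter Slc47a1 was at 27.2, 64.6 and 20.8 CPM against 0.859, 0.371 and 0.110. Slc6a12 and Slc47a1 entered the test through the chosen spots, so no fold is given for them. The glucose transporter Slc2a1, which brain endothelium also makes, differed least of those named, at 203, 123 and 155 CPM against 70.2, 74.3 and 70.1 (1.19 ± 0.17).

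Retinoid genes rose in 11 of 14 cases tested. Aldh1a2, the enzyme that makes retinoic acid in the meninges, was at 111, 278 and 116 CPM against 1.95, 3.64 and 2.09 (log2 fold change 5.99 ± 0.24, edgeR adjusted p = 2.72e-12). The receptors Rarb and Rarg and the carrier Crabp1 did not pass. Among prostaglandin and lipid genes, 7 of 11 rose and Ptgs1, Ptgs2, Fabp5 and Lpl did not pass. Apod, a lipid carrier, was at 1258, 2077 and 1211 CPM against 224, 254 and 247. With section 5 left out, 5 of the 11 passed.

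Mesenchymal transcription factors rose in 15 of 19 cases tested (median 4.12), and 7 of the 26 listed were too rare to test. Foxc1, a forkhead factor needed for the meninges to form, was at 54.4, 184 and 90.1 CPM against 5.93, 6.31 and 5.73 (log2 fold change 4.08 ± 0.31, edgeR adjusted p = 1.03e-08). Its relative Foxc2 was at 32.1, 77.5 and 23.1 CPM against 0.546, 0.445 and 0.331. Foxc2 entered the test through the chosen spots, so no fold is given. Foxd1 was at 34.6, 100 and 50.9 CPM against 2.11, 2.89 and 1.60. Zic1, which some neurons also express, differed less, at 128, 220 and 199 CPM against 84.1, 68.2 and 68.8. Prdm6, a regulator of smooth muscle, was among the 12 largest differences on 8, 11 and 6 counts. The joint lubricant Prg4 was also among these 12, at 69.2, 155 and 23.1 CPM against 1.37, 1.78 and 0.551, and so was Asgr1, a lectin best known from liver, at 42.0, 54.9 and 18.5 CPM against 0.780, 0.742 and 0.441. Prdm6, Prg4 and Asgr1 also entered the test through the chosen spots.

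Growth factor and immune genes gave a more uneven picture. Of 12 genes of the insulin-like growth factor axis tested besides Igf2, 6 rose, among them 5 binding proteins, while the receptors Igf1r, Igf2r and Insr did not pass. Igfbp2, which binds Igf2, was at 573, 905 and 638 CPM against 100.8, 64.2 and 47.3 (log2 fold change 3.39 ± 0.20, edgeR adjusted p = 3.73e-10). Bmp7 was at 111, 174 and 80.9 CPM against 9.17, 8.61 and 6.89, and 14 of 24 genes of TGF-beta and BMP signalling rose (10 of 24 without section 5). Of 15 Wnt genes tested, 6 rose, where 14.3% of all genes tested did. Wnt6 was at 24.7, 61.4 and 37.0 CPM against 0.859, 0.965 and 0.220. It entered the test through the chosen spots, so no fold is given. Cxcl12, the chemokine that retains leukocytes and progenitors, was at 148, 284 and 129 CPM against 32.5, 44.3 and 36.8, and complement C4b at 106, 197 and 111 CPM against 15.3, 18.3 and 14.2. Of the chemokine, cytokine and complement genes tested, 11 of 13 rose, and of 11 immediate early genes 2 rose and 3 fell, the 2 that rose losing their calls without section 5. Antigen presentation genes rose in 9 of 10 cases. The class II chain H2-Aa was at 39.5, 210 and 150 CPM against 2.07, 4.82 and 2.31, lower in section 2 than in the other two.

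RNA of vessel walls and resident macrophages was higher in the same spots. Mural markers rose in 8 of 9 cases (Kcnj8, a pericyte channel, did not pass), endothelial markers in 7 of 7 with a smaller median (1.56 against 3.33), and markers of border macrophages in 8 of 8 (median 4.34). Of these 8, Lyve1 was counted in only 1, 2 and 1 chosen spots of sections 2, 5 and 6. Cd163 was counted in 4, 1 and 4, and Ms4a7 in 6, 2 and 4. Genes this rare entered the test through the chosen spots, so the 8 of 8 describes the list and is not support. With 25 spots per section 6 of the 8 could be tested, and 5 with spots chosen on part of the counts. All of those rose. The smooth muscle actin Acta2 was at 215, 536 and 199 CPM against 8.78, 12.5 and 14.2 (log2 fold change 4.65 ± 0.23, edgeR adjusted p = 1.94e-11). Mrc1, the mannose receptor of border macrophages, was at 44.5, 45.2 and 32.4 CPM against 2.69, 1.86 and 1.93. Summed mural markers stood at 1285, 2494 and 1121 CPM against 142, 179 and 162, and both they and the summed fibroblast markers were highest in section 5, the latter at 1213, 2604 and 1290 CPM against 86.9, 89.7 and 74.4. Red blood cell genes rose in 5 of 5 cases, from 1298, 1205 and 1780 to 12066, 7470 and 13422 CPM in sum, and 5 spots of section 2 held 81.6% of those counts. Reads of the near-identical globin copies may have been split between them. Microglial markers rose in 1 of 7 cases: C1qa passed, at 121, 158 and 106 CPM against 57.0, 55.3 and 52.5, while P2ry12 did not pass, at 37.1, 16.2 and 11.6 CPM against 33.5, 30.3 and 29.0. With the 3 sections pooled, none of these marker lists had a defining gene at 0 in the chosen spots. By section, Kcnj8 was counted in 4, 1 and 0 of them. The part of vessel, blood and immune RNA in the results above was not tested.

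Genes of the glia limitans, the astrocyte border under the pia, rose in 4 of 4 cases. Gfap was at 378, 591 and 488 CPM against 54.3, 82.5 and 73.8 (log2 fold change 2.81 ± 0.13, edgeR adjusted p = 1.01e-11), and Myoc at 346, 246 and 203 CPM against 10.2, 7.27 and 6.34 (5.08 ± 0.17, edgeR adjusted p = 4.11e-13). General astrocyte markers rose in 3 of 6 cases, and Slc1a2, the glutamate transporter, did not pass. Oligodendrocyte markers rose or fell in 0 of 9 cases by edgeR (1 at an unadjusted p under 0.05) and in 0 of 9 by DESeq2. Mbp was at 4778, 3286 and 2651 CPM against 3351, 3326 and 3460. It passed as higher with 100 spots per section (log2 fold change 0.23, edgeR adjusted p = 0.0458) and against other spots of like depth (0.46, edgeR adjusted p = 0.0183). Neuronal markers fell in 10 of 10 cases, with a median log2 fold change of -1.17. Snap25, a synaptic protein, was at 1080, 989 and 938 CPM against 2524, 2510.3 and 2755 (-1.35 ± 0.13, edgeR adjusted p = 2.23e-07). Of 7 markers of the outer cortex, Ndnf, a gene of cortical layer I, rose at 74.1, 51.7 and 16.2 CPM against 9.56, 8.16 and 7.49, while Lamp5 and Calb1 fell and Reln did not pass. Mitochondrially encoded genes passed in 0 of 12 cases by edgeR, with 0 at an unadjusted p under 0.05, and in 0 of 12 by DESeq2.

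Genes of neurons were among the largest falls. Hs3st2, a heparan sulfate enzyme of neurons, was at 4.94, 0 and 2.31 CPM against 31.8, 31.2 and 32.8. Its levels in the chosen spots rest on under 3 counts in each section, so no fold is given. Oxytocin (Oxt) was at 9.88, 71.1 and 74.0 CPM against 50.2, 416 and 896, so that it fell in all 3 sections although its level elsewhere differed widely between them.

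Choroid plexus markers differed between the chosen spots of the 3 sections. The 9 choroid plexus markers summed to 12654, 4623 and 75207 CPM in the chosen spots against 7042, 5174 and 3957 in the others. Transthyretin (Ttr), the main secreted protein of the choroid epithelium, was at 10752, 3816 and 66666 CPM against 5884, 4432 and 3335. It was thus higher in sections 2 and 6 and lower in section 5. Its log2 fold change over the 3 sections was 1.53 ± 0.54 (edgeR adjusted p = 0.0429), 0.31 without section 6, 2.58 without section 5 and -0.85 with 25 spots per section. The edgeR test passed for 9 of 9 choroid markers over the 3 sections, and for 0 of 9 without section 6 (3 at an unadjusted p under 0.05) or with 25 spots per section (1). DESeq2 called 0 of 9. Of the 50 chosen spots, 1, 2 and 14 were also among the 50 spots with the highest choroid plexus score. With all choroid spots left out of both sides, 5 of 9 choroid markers, 12 of 12 fibroblast markers and 1789 genes in all rose. Ependymal markers rose in 7 of 7 cases but in 1 of 7 with 25 spots per section.

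Levels by rank showed how quickly fibroblast RNA fell off within the 50 spots. The 12 fibroblast markers summed to 2225, 4879 and 3439 CPM in ranks 1 to 10 of sections 2, 5 and 6, and to 705, 894 and 469 CPM in ranks 26 to 50. Just past the limit, in ranks 51 to 100, they were at 571, 498 and 259 CPM. Ttr ran the other way, at 352, 679 and 11226 CPM in ranks 1 to 10 and at 67391, 87011 and 91982 CPM in ranks 51 to 100. Igf2, which is part of the score, stood at 1205, 3364 and 1445 CPM in ranks 1 to 10 and was still at 639, 1188 and 1089 CPM in ranks 51 to 100. Igfbp2 did the same, at 1122, 1810 and 548 CPM and then 821, 787 and 721 CPM. Dcn had by then fallen to 164, 171 and 81.2 CPM. Oligodendrocyte markers were lowest in the top 10 ranks, at 3514, 2371 and 4022 CPM, and reached 17555, 14333 and 11417 CPM in ranks 11 to 25.

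**Figure D3:**
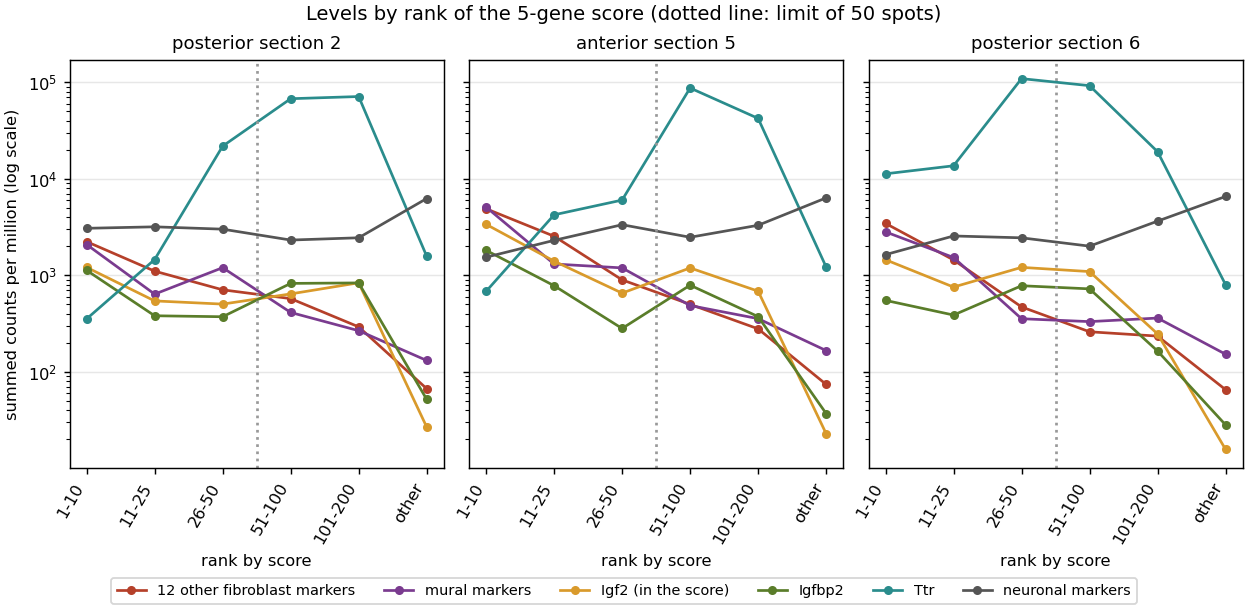
Summed CPM (log axis) by rank of the 5-gene score in sections 2, 5 and 6, for the 12 other fibroblast markers, mural and neuronal markers, Igf2, Igfbp2 and Ttr. Fibroblast markers fall from rank 1 onwards, Ttr is higher just past the limit of 50 (dotted line) than in ranks 1 to 10, and Igf2 and Igfbp2 stay high on both sides of the limit.

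Across the 50 chosen spots of a section, the level of the 12 fibroblast markers went with that of mural markers most closely. Spearman's rho was 0.48, 0.72 and 0.73 in sections 2, 5 and 6. It was 0.41, 0.69 and 0.53 with dural and 0.34, 0.64 and 0.35 with arachnoid markers. Choroid plexus markers went the opposite way, at -0.24, -0.37 and -0.50. These values describe 50 spots of 1 library that share its depth and were selected on a common score, and no p is attached to them.

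Choroid plexus spots, the 50 per section with the highest score of Ttr, Folr1, Clic6, Kl and Enpp2, were compared because the choroid plexus has fibroblasts in its stroma and an epithelium that also makes Igf2. Spots in both sets were left out of both, and the 10 genes of the 2 scores were not tested. Of 6374 genes tested, 1116 were higher in the fibroblast spots (17.5%) and 1031 lower (16.2%). Leaving out section 5 gave 654 and 678. The transporters Slc13a3 and Slc22a6 and the enzyme Aldh1a2 had 0 to 2 counts per section in choroid plexus spots. They entered the test through the fibroblast spots, so their levels are given without a fold or a p. Slc13a3 was at 170, 302 and 178 CPM against 1.21, 0 and 2.59 in choroid plexus spots. Aldh1a2 was at 118, 283 and 178 CPM against 2.41, 6.43 and 0, and Slc22a6 at 141, 233 and 117 CPM against 2.41, 0 and 5.17. Vitronectin (Vtn), which pericytes also make, was at 544, 1030.5 and 659 CPM against 33.8, 41.8 and 38.8.

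Fibroblast markers were not absent from choroid plexus spots. Col1a2 stood there at 70.0, 57.9 and 49.1 CPM, against 204, 445 and 231 in the fibroblast spots (1.92 ± 0.25, edgeR adjusted p = 1.38e-05), and 9 of 11 further fibroblast markers tested were higher in the fibroblast spots. Markers rare in choroid plexus spots could enter this test only through the fibroblast spots, so that count describes them and is not support. Slc13a4 was shared: it stood at 172, 342 and 163 CPM against 250, 125 and 145, and did not pass (log2 fold change 0.07 ± 0.27, edgeR adjusted p = 0.888). Without section 5 its direction turned, to -0.49, and without section 2 it was 0.63 (edgeR adjusted p = 0.0496). Igfbp2 was lower in the fibroblast spots, at 559, 917 and 295 CPM against 1465, 1183 and 836 (-1.30 ± 0.20). Sostdc1, a BMP and Wnt antagonist of the choroid epithelium, was at 15.7, 3.32 and 3.78 CPM, on 6, 1 and 1 counts, against 632, 424 and 266. Neuronal markers were higher in the fibroblast than in the choroid plexus spots in 9 of 10 cases, and Snap25 was at 1119, 1014 and 1317 CPM against 267, 286 and 623.

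Oligodendrocyte spots, the 50 per section with the highest score of 5 myelin genes that include Mbp, Mog, Mag and Mobp, served as the second comparison because these cells also make Ptgds. Of 5185 genes tested, 725 were higher in the fibroblast spots (14%) and 861 lower (16.6%). With so few counts, genes entered this test mainly through the set in which they were high. Igfbp2 and Mgp passed the filter through the fibroblast spots, so their levels are given without a fold or a p. Igfbp2 was at 576, 905 and 638 CPM against 73.2, 62.1 and 34.4, and Mgp at 538, 1066 and 733 CPM against 20.3, 17.8 and 34.4. Vtn was at 530, 1005 and 451 CPM against 85.4, 88.8 and 74.5 (log2 fold change 2.69 ± 0.22). Col1a1 was at 124, 246 and 164 CPM against 1, 0 and 0 counts in all. Apod and Gfap did not separate the 2 sets. Apod stood at 1243, 2077 and 1211 CPM against 1488, 1864 and 1799.9 (-0.40 ± 0.17, edgeR adjusted p = 0.0736), and Gfap at 379, 591 and 488 CPM against 423, 754 and 510 (-0.36 ± 0.16, edgeR adjusted p = 0.0878). Sox10, the master factor of oligodendrocytes, was at 27.8, 22.6 and 37.0 CPM against 240, 364 and 384, and Tspan2, a protein of myelin membranes, at 217, 132 and 118 CPM against 1541, 1536 and 1479.

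**Figure D4:**
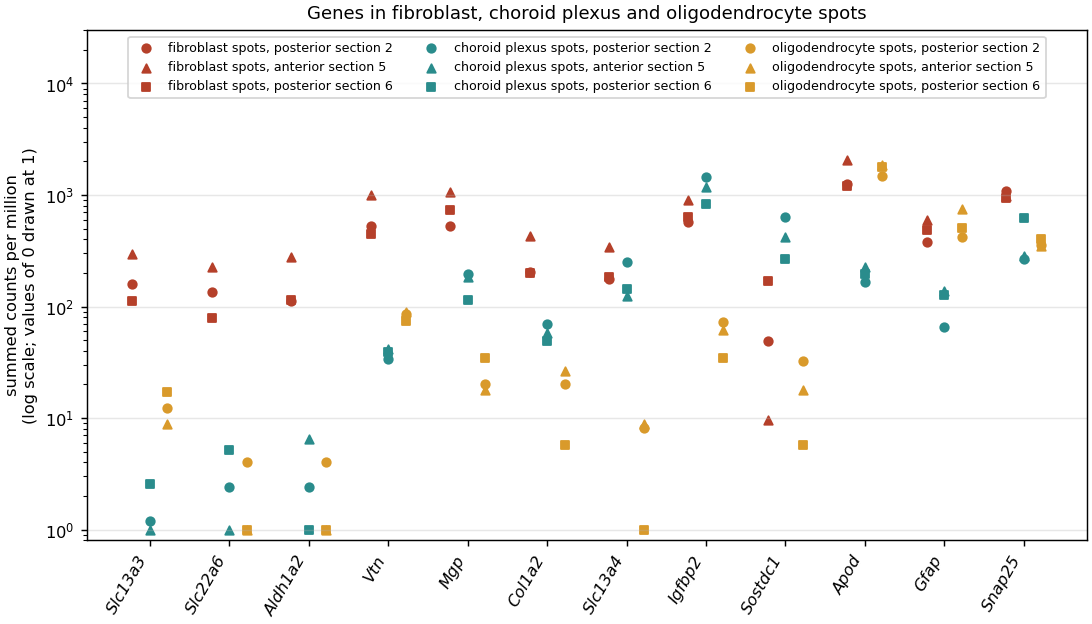
Summed CPM (log axis, values of 0 drawn at 1) of 12 genes in fibroblast, choroid plexus and oligodendrocyte spots of sections 2 (circles), 5 (triangles) and 6 (squares). Fibroblast sums hold all 50 spots of a section. Spots shared with the fibroblast set are left out of the other sums. Those hold 49, 48 and 36 choroid plexus and 49, 50 and 50 oligodendrocyte spots. Slc13a3, Slc22a6 and Aldh1a2 are higher in the fibroblast spots than in both other sets, Slc13a4 and Igfbp2 are high in fibroblast and choroid plexus spots, and Apod and Gfap are high in fibroblast and oligodendrocyte spots.

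The anterior section had no replicate, so its chosen spots are set beside those of the posterior sections without a test. Of 1583 genes with at least 50 counts in the higher section, 22 were at least 2-fold higher in section 5 than in both posterior sections (1.39%) and 15 were at least 2-fold lower than in both (0.948%). Of the 9 mural markers, 2 were among the 22. Acta2 was at 536 CPM in section 5 (exact Poisson 95% interval 458 to 624), against 215 (172 to 265) in section 2 and 199 (159 to 245) in section 6, and Tagln at 317 (257 to 386) against 119 and 118. The 22 also included 4 of the 12 fibroblast markers, Foxc1 among them, and the enzyme Aldh1a2. Fmod was at 517 (440 to 604) CPM against 215 and 116, Ogn at 391 against 185 and 155, Col1a2 at 433 against 203 and 199, and Aldh1a2 at 278 against 111 and 116. The matricellular genes Ctgf, at 401 CPM against 66.7 and 141, and Nov, at 481 against 69.2 and 134, had the largest differences from section 2. The intervals of these genes in section 5 did not meet those of either posterior section, and they cover counting error only.

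Of the 15 lower genes, 7 were among the 9 choroid plexus markers, such as Ttr at 3816 CPM (3601 to 4040) against 10752 and 66666, Enpp2 at 614 against 1554 and 6701 and Folr1 at 29.1 against 61.8 and 240. Dcn did not follow this order, at 594 CPM in section 5 and 610 in section 6, and Fn1 was at 391 against 240 and 247, under 2-fold. Neither the placing of the sections nor the share of meninges in them is known from the files, so that section and level along the brain cannot be told apart.

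**Figure D5:**
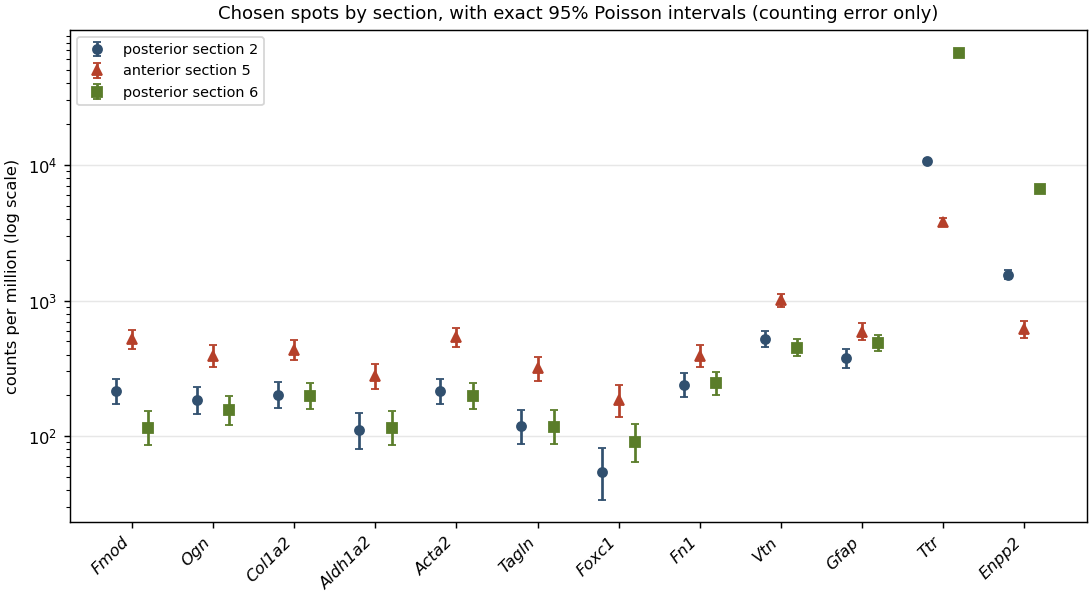
CPM (log axis) of 12 genes in the 50 chosen spots of posterior section 2, anterior section 5 and posterior section 6, with exact 95% Poisson intervals that cover counting error only. Fmod, Ogn, Col1a2, Aldh1a2, Acta2, Tagln and Foxc1 are highest in section 5, and Ttr and Enpp2 are lowest there.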

How the data were processed

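RNA was captured on Visium slides from 3 cryosections of 10 µm (permeabilized for 24 min, stained for NeuN and DAPI), per the labels' protocols. The deposited table holds raw counts of 28692 genes in each spot, and a deposited column of section names, with no unit, assigned the spots to sections. Space Ranger and Seurat and the builds mm10 and NCBIM37 are named in the submitters' processing notes without a role, and the aligner and counting settings are not given in the sources used here. The single-cell files were not used here.

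Spots under 1000 counts (20 of 7827) were left out. Counts of the chosen and of the other spots were summed per section, which gave 3 pairs of sums. They were tested with edgeR 4.0.16 in R 4.3.3 (filterByExpr, TMM scaling, quasi-likelihood F-test, section as a block) and Benjamini-Hochberg adjustment over all genes tested, with a threshold of 0.05. The block pairs sums from the same section. Deviations of chosen and other spots correlated at 0.170, 0.132 and 0.051 within sections 2, 5 and 6, and at -0.169 to 0.027 between sections. DESeq2 1.42.0, other filters, scalings, spot numbers and scores, and each section left out were alternatives. The edgeR fit was tested on simulated data. Sums and scores were computed with pandas 2.3.3 and numpy 2.4.6 in Python 3.11.15, intervals with scipy 1.17.1, and plots with matplotlib 3.10.9.

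Genes were named by rule. For each direction these were the 12 largest differences past the threshold, if they were 1 or more on the log2 scale, reached a mean of 20 CPM in either set and had 1 direction in all 3 sections. The 4 lowest adjusted p-values of every list added to them. Others named, such as list members that did not pass, were chosen after their values were seen. The 35 lists held 408 genes, all in the table. Some genes of these lists and scores are not reported here by name. Members and lists were chosen with earlier results of these data known. Intervals cover counting error only. Promoter windows came from RefSeq (GRCm38.p6).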

Additional observations from a re-analysis of the deposited data

Results flagged for a closer look

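Ttr, the secreted carrier protein of the choroid plexus, moved in opposite directions in the anterior and posterior sections. The log2 ratio of its CPM in the chosen spots to that in the other spots was 0.87 in posterior section 2 and 4.32 in posterior section 6, and -0.22 in anterior section 5. The difference between anterior and posterior was not tested, since there was 1 anterior section. Of the 50 chosen spots, 1, 2 and 14 in sections 2, 5 and 6 were also among the 50 with the highest choroid plexus score, and the part of this overlap in the result was not tested.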

How the results depend on the processing

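Against the other spots, 1979 genes rose and 1655 fell. These counts were 3043 and 2812 with 100 spots per section, 1294 and 1171 with 25 spots, 1601 and 1009 with DESeq2's Wald test, 2695 and 2520 with a score without Ptgds, and 1132 and 946 with spots chosen on 50% of the counts. They ranged from 1131 to 1727 and from 979 to 1558 with a section left out. Against choroid plexus spots the counts were 786 and 686 with 25 spots and 523 and 507 with DESeq2, and ranged from 654 to 1275 and from 678 to 1098 with a section left out. Against oligodendrocyte spots they were 440 and 498 with 25 spots and 271 and 448 with DESeq2, and ranged from 557 to 638 and from 678 to 718 with a section left out. Without the section as a replicate block, they were 2161 and 1732, 1055 and 978, and 655 and 802 for the 3 comparisons, and no count moved by over 1.5 times. The anterior section had 73 genes higher and 49 lower than both posterior sections at 1.5-fold, and 12 and 6 with 25 spots. Without a filter on low counts, the median log2 fold change over all genes tested was -0.28 against the other spots and 0.32 against oligodendrocyte spots. Of the single genes given with values, 52 of 58 against the other spots, 8 of 9 against choroid plexus spots and 7 of 8 against oligodendrocyte spots kept direction and call in every alternative in which they had a value. These tallies include genes that entered a test through the spots in which they were high. Examples are Cdh1 and Foxc2 against the other spots, Slc13a3 against choroid plexus spots and Mgp against oligodendrocyte spots. For such genes a call that was kept is not support. Signs turned for Agrn (-0.19 with 100 spots, from -0.00095 to 0.24 with a section left out), Mbp (-0.12 with 25 spots, -0.027 without a filter, -0.013 without Ptgds, from -0.18 to 0.23 with a section left out; past the threshold as higher at 0.23 with 100 spots and 0.46 against spots of like depth), Ttr (-0.85 with 25 spots), Slc13a4 against choroid plexus spots (from -0.49 to 0.63 with a section left out) and Apod against oligodendrocyte spots (0.045 with 25 spots). The cause was not tested. With 309522 to 432634 counts in the chosen spots of a section, levels under 3 counts were not measurable there.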
